A study of Mus musculus with 6 samples.

Results

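The genes that build caveolae and their diaphragms were followed in RNA-seq libraries of cultured mouse lung endothelial cells (MLECs). The set was chosen by name and holds Cav1, Cav2, Plvap, Ehd2, Pacsin2 and Pacsin3, 6 of the 17463 gene entries of the deposited table, and all 6 were among the 11432 genes tested. One group of cells came from Hey1 iEC-KO mice with a HEY1-3KR iEC-KI (HEY1-3KR KI, 3 libraries), and the other, set beside it, from Hey1 iEC-KO mice with a HEY1-WT iEC-KI (HEY1-WT KI, 3 libraries). Both genotypes thus carried the Hey1 knockout and a HEY1 knock-in, neither was treated, and cells were grown in EGM-2 endothelial medium with serum. The sources used here give no Cre driver, knock-in locus, mouse age or purification step. HEY1 is a transcriptional repressor induced by Notch, and 3KR, which the labels leave unexplained, is the usual way to write 3 lysines changed to arginine. Whether replicates of a genotype were separate mice or cultures is likewise not stated, and each p-value therefore reflects the scatter among the 6 libraries, possibly technical.

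Caveolae are flask-shaped pits of the plasma membrane that are abundant in lung endothelium, where they take part in uptake, transcytosis and mechanical buffering. Caveolin-1 (Cav1) inserts into the inner leaflet and oligomerises with caveolin-2 (Cav2), and the cytosolic cavins coat the resulting bulb. EHD2, a membrane-bound ATPase, sits at the neck and restrains the pit from leaving the surface, and the PACSIN proteins (syndapins) are F-BAR proteins that bend membrane and recruit dynamin. PLVAP is the endothelial glycoprotein that forms the thin diaphragms across the openings of caveolae, fenestrae and transendothelial channels.

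Cav2 and Cav1 are neighbours on chromosome 6 of GRCm38 (the assembly mm10 stands for), on the same strand, with Cav2 at 17281185 to 17289130, Cav1 at 17306335 to 17341328 and 17204 bases between them. Plvap lies on chromosome 8 at 71497753 to 71511806, Ehd2 on chromosome 7 at 15946963 to 15967535, Pacsin2 on chromosome 15 at 83375607 to 83464610 and Pacsin3 on chromosome 2 at 91255875 to 91264680. All 6 are protein-coding. The first sequence below is shown because a gene-level value for Cav1 can pool transcripts for 2 forms of the protein. It is the first 105 coding bases of the longest Cav1 reading frame (GENCODE annotation of GRCm38, plus strand), with the start codon of the 178-codon alpha form and the next in-frame ATG, codon 32, in capitals. The shorter beta form, of 147 codons, starts at that later ATG in 2 other annotated transcripts.

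Cav1 coding start: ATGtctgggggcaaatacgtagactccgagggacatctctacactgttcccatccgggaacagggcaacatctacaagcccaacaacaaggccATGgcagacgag

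The other 3 sequences are the 250 bases before annotated starts of Cav2, Cav1 and Pacsin2 (RefSeq, GRCm38.p6). These genes differed little between the genotypes, and Cav2 and Cav1 lie side by side. The window of Ehd2, which also differed little, is not shown. Cav2 is at chr6:17280935-17281184 and Cav1 at chr6:17306085-17306334, both on the plus strand, and Pacsin2 is at chr15:83464607-83464856 on the minus strand. Capitals mark matches on either strand to CACGNG, a form of the E-box type sequences that HEY proteins are known to bind, and to GGGCGG, the core of the GC box of SP1. Another window of Cav1 (chr6:17307390-17307639) held neither and is not shown. The same holds for further windows of Pacsin2 (chr15:83447881-83448130 and chr15:83432851-83433100). The windows of Pacsin3, also not shown, held GGGCGG and no CACGNG.

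Cav2 upstream: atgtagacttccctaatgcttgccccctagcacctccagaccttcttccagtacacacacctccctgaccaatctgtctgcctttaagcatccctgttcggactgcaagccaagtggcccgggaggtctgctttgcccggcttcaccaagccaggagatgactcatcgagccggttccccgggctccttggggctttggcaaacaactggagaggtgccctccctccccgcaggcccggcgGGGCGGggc

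Cav1 upstream: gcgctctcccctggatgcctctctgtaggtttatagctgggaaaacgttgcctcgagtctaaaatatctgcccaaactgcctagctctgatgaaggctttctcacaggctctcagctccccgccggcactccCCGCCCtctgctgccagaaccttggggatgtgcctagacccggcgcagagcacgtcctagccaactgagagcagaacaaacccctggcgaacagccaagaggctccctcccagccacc

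Pacsin2 upstream: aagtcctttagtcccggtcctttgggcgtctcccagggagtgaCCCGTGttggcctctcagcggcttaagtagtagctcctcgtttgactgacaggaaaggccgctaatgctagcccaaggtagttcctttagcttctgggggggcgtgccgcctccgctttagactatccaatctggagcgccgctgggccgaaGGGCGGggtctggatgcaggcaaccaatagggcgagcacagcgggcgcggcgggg

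RefSeq windows were at hand for 5 of the 6 genes, 9 windows in all, and not for Plvap. CACGTG, which is contained in CACGNG, was in 0 of these 9 windows, against 6.02% of 32851 windows of the same length over all genes. CACGNG was in 2 of the 9, upstream of Ehd2 and Pacsin2, against 23.5% of all windows, and GGGCGG in 6 of the 9, against 32.7%. A match describes the letters only.

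In HEY1-3KR KI libraries the diaphragm gene Plvap rose and the syndapin gene Pacsin3 fell, whereas Cav1, Cav2, Ehd2 and Pacsin2 did not pass the test. In the fit used here, limma on log2(FPKM + 1) with Benjamini-Hochberg adjustment over all genes and a threshold of 0.05, 1 of the 6 genes was higher, against 29.9% of all genes tested, and 1 was lower, against 23.4%. Together 2 of 6 passed, against 53.2% of all genes tested, so the share was not above the background. The median log2 fold change over all genes tested was 0.0189. FPKM is scaled to transcript length and library total, so levels of different genes can be set beside each other roughly. A small difference between genes need not be one of transcript abundance. In bulk RNA fewer cells of a type cannot be told apart from less RNA per cell.

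**Figure D1:**
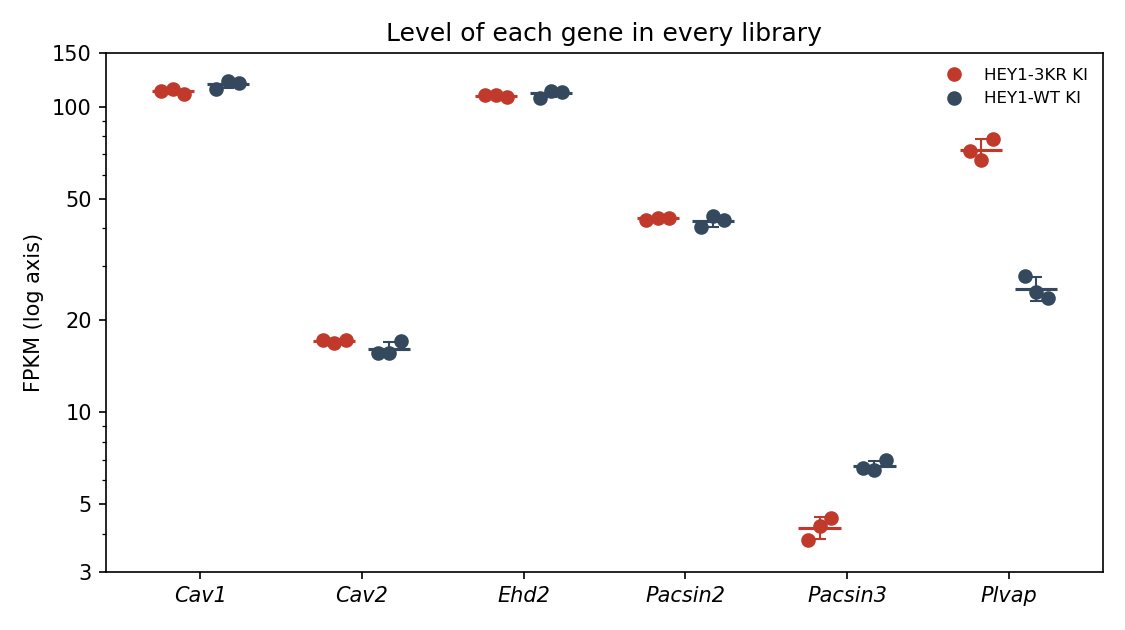
FPKM of the 6 genes (log axis) in each HEY1-3KR KI library (red, left of each pair) and each HEY1-WT KI library (dark, right), with horizontal lines at the means and bars for the SD over 3 libraries. Plvap is the gene whose groups lie farthest apart, at 67.2 to 78.6 FPKM in HEY1-3KR KI and 23.6 to 27.9 FPKM in HEY1-WT KI, and the points of Cav2, Ehd2 and Pacsin2 overlap.

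The libraries held transcripts of several cell types, and most of their markers moved in the direction of Plvap. Among all genes tested, 29.9% rose and 23.4% fell. Of 20 pan-endothelial markers, led by Cdh5, Cldn5 and Eng, 18 rose and 2 did not pass (median log2 fold change 0.71), with summed levels of 535.3 to 543.3 FPKM in HEY1-3KR KI and 321.7 to 331.1 FPKM in HEY1-WT KI. Macrophage markers, led by Lyz2, C1qb and C1qa, rose in 16 of 17 cases and 1 fell, with sums of 5386.1 to 5653.4 FPKM in HEY1-3KR KI and 4184.3 to 4277.9 FPKM in HEY1-WT KI, above the endothelial sums in every library. All 10 tested fibroblast markers of 11, led by Col1a1, Col1a2 and Col3a1, rose, with sums of 1173.7 to 1190.9 FPKM in HEY1-3KR KI and 622.2 to 629.1 FPKM in HEY1-WT KI. Fibroblasts, smooth muscle and alveolar type I cells are themselves known to express Cav1, so a library's Cav1 level need not be that of endothelial cells alone. Alveolar type II and general epithelial markers, led by Sftpc, Krt8 and Krt18, rose in 10 of 11, with sums of 363.2 to 395.2 FPKM in HEY1-3KR KI and 100.6 to 115.2 FPKM in HEY1-WT KI. Alveolar type I markers, led by Pdpn, Emp2 and Ager, rose in 5 of 7 tested and 1 fell (sums 90.2 to 93.0 FPKM in HEY1-3KR KI and 101.9 to 105.2 FPKM in HEY1-WT KI). The lower sum came from Pdpn, which averaged 37.0 FPKM in HEY1-3KR KI and 72.9 FPKM in HEY1-WT KI. Every other gene of that list had a higher mean in HEY1-3KR KI. Smooth muscle and pericyte markers, led by Acta2, Tagln and Mcam, rose in 2 of 9 tested and fell in 3 (1124.5 to 1162.4 FPKM in HEY1-3KR KI and 1082.3 to 1104.6 FPKM in HEY1-WT KI). Mcam was among the rises, at a mean of 84.7 FPKM in HEY1-3KR KI and 49.7 FPKM in HEY1-WT KI, whereas Acta2 and Tagln did not pass. The other rise, Kcnj8, was the largest change of the list, at a mean of 11.6 FPKM in HEY1-3KR KI and 1.88 FPKM in HEY1-WT KI. The lists thus did not move as one. Mesothelial markers, led by Msln, Upk1b and Lrrn4, rose in 2 of 5 tested and fell in 2 (100.8 to 101.9 FPKM in HEY1-3KR KI and 155.2 to 156.9 FPKM in HEY1-WT KI). The lower sum came mostly from Msln, which averaged 58.8 FPKM in HEY1-3KR KI and 113.6 FPKM in HEY1-WT KI. Upk3b, Lrrn4 and Wt1 had higher means in HEY1-3KR KI, and Upk1b and Krt5 lower ones. Adipocyte and muscle markers, led by Fabp4, Myh6 and Ckm, rose in 2 of 4 tested and fell in 2 (22.4 to 29.8 FPKM in HEY1-3KR KI and 25.9 to 29.3 FPKM in HEY1-WT KI). Slc34a2, Lamp3, Epcam and the fibroblast marker Tcf21 reached the filter value of 1 FPKM in HEY1-3KR KI libraries only. The muscle marker Myog reached it in HEY1-WT KI libraries only. These genes entered the test only through the group where they were high, so their calls are not independent of the filter. No marker was at 0 in all libraries, and the part of these cell types in the values of the 6 genes was not tested. Hey1 itself averaged 5.27 ± 0.422 FPKM in HEY1-3KR KI and 2.20 ± 0.0426 FPKM in HEY1-WT KI, and since the knock-in transcript may or may not be counted there, it does not check the labels.

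Plvap read 71.6, 67.2 and 78.6 FPKM in HEY1-3KR KI replicates 1 to 3, against 27.9, 24.7 and 23.6 FPKM in HEY1-WT KI replicates 1 to 3. The lowest HEY1-3KR KI library was far above the highest HEY1-WT KI library. Means were 72.5 ± 5.76 FPKM in HEY1-3KR KI and 25.4 ± 2.22 FPKM in HEY1-WT KI (SD, n = 3 libraries each), a 2.85-fold difference. On the log2(FPKM + 1) scale Plvap rose by 1.48 ± 0.0716 (SE), at an adjusted p of 6e-07 by limma with Benjamini-Hochberg adjustment, and 0.656% of all genes tested had a larger rise. Plvap shares 1819 bases of its gene span with Gtpbp3 on the opposite strand, with 0 bases shared between annotated exons. Gtpbp3, a mitochondrial tRNA modification gene, averaged 6.34 ± 0.117 FPKM in HEY1-3KR KI and 6.82 ± 0.189 FPKM in HEY1-WT KI (limma, Benjamini-Hochberg adjusted p = 0.114).

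Pacsin3, known as the syndapin of muscle caveolae, was the least expressed of the 6. It read 3.81, 4.23 and 4.51 FPKM in HEY1-3KR KI replicates 1 to 3, against 6.57, 6.49 and 6.98 FPKM in HEY1-WT KI replicates 1 to 3. Every HEY1-3KR KI library was below every HEY1-WT KI library. Means were 4.18 ± 0.354 FPKM in HEY1-3KR KI and 6.68 ± 0.265 FPKM in HEY1-WT KI, a ratio of 0.626. The log2 difference was -0.57 ± 0.0608 (SE), at an adjusted p of 6.8e-05 by limma with Benjamini-Hochberg adjustment. Of all genes tested, 4.22% had a larger fall. A lincRNA on the opposite strand, Gm17281, shares 42 exonic bases with Pacsin3, and whether counting used strand is not stated.

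The caveolins themselves stayed close together between the genotypes. Cav1 read 112.7, 114.1 and 110.4 FPKM in HEY1-3KR KI replicates 1 to 3, against 114.6, 121.2 and 119.2 FPKM in HEY1-WT KI replicates 1 to 3. The HEY1-3KR KI values were all below the HEY1-WT KI values, by a narrow gap. Such a lack of overlap was seen for 3 of the 6 genes (Cav1, Plvap and Pacsin3), against 61.1% of all genes tested. Means were 112.4 ± 1.84 FPKM in HEY1-3KR KI and 118.4 ± 3.39 FPKM in HEY1-WT KI. The log2 fold change was -0.074, with a 95% interval from -0.15 to 0.0038 (limma, Benjamini-Hochberg adjusted p = 0.0987), which bounds the fold between 0.901 and 1.00 on the FPKM + 1 scale. Its size depended on the scaling between libraries. After median-of-ratios scaling it was -0.11 and passed (limma, Benjamini-Hochberg adjusted p = 0.0259), and under quantile normalization it was -0.0061 and did not (adjusted p = 0.91), which are the ends of the range over 12 alternatives.

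Cav2, which depends on caveolin-1 to reach the cell surface, read 17.3, 16.9 and 17.3 FPKM in HEY1-3KR KI replicates 1 to 3, against 15.6, 15.6 and 17.1 FPKM in HEY1-WT KI replicates 1 to 3. HEY1-WT KI replicate 3 lay within the HEY1-3KR KI range, and the other HEY1-WT KI libraries lay below it. The log2 fold change was 0.09, with a 95% interval from -0.012 to 0.19 (limma, Benjamini-Hochberg adjusted p = 0.122), so a fold of 0.992 to 1.14 was within reach. Without HEY1-WT KI replicate 3 the log2 fold change was 0.13 and passed (limma, Benjamini-Hochberg adjusted p = 0.0392, over a range of 0.0392 to 0.318 across 12 alternatives). Cav2 stood at 0.154, 0.148 and 0.157 of the Cav1 level in HEY1-3KR KI replicates 1 to 3, against 0.136, 0.129 and 0.143 in HEY1-WT KI replicates 1 to 3. This within-library ratio, which does not depend on the library total, was higher in each HEY1-3KR KI library, with a log2 difference of 0.17 (exact two-sided permutation p = 0.1). Under quantile normalization the difference was 0.071 and the groups overlapped (exact two-sided permutation p = 0.3). The p of 0.1 is the smallest that 3 against 3 libraries allow, and it was the same for all 11 within-library ratios computed and after Benjamini-Hochberg adjustment over them.

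Like Cav2, and unlike Cav1, the neck genes Ehd2 and Pacsin2 overlapped between genotypes. Ehd2 read 109.5, 109.1 and 107.7 FPKM in HEY1-3KR KI replicates 1 to 3, against 107.0, 113.0 and 111.9 FPKM in HEY1-WT KI replicates 1 to 3. The HEY1-3KR KI values lay inside the HEY1-WT KI range. The log2 fold change was -0.024, with a 95% interval from -0.099 to 0.052 (limma, Benjamini-Hochberg adjusted p = 0.571). Pacsin2, the broadly expressed syndapin, read 42.7, 43.4 and 43.3 FPKM in HEY1-3KR KI replicates 1 to 3, against 40.3, 43.8 and 42.7 FPKM in HEY1-WT KI replicates 1 to 3. Here too the groups overlapped, and the log2 fold change was 0.03, with a 95% interval from -0.058 to 0.12 (limma, Benjamini-Hochberg adjusted p = 0.543). The intervals leave folds of 0.934 to 1.04 for Ehd2 and 0.96 to 1.09 for Pacsin2.

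**Figure D2:**
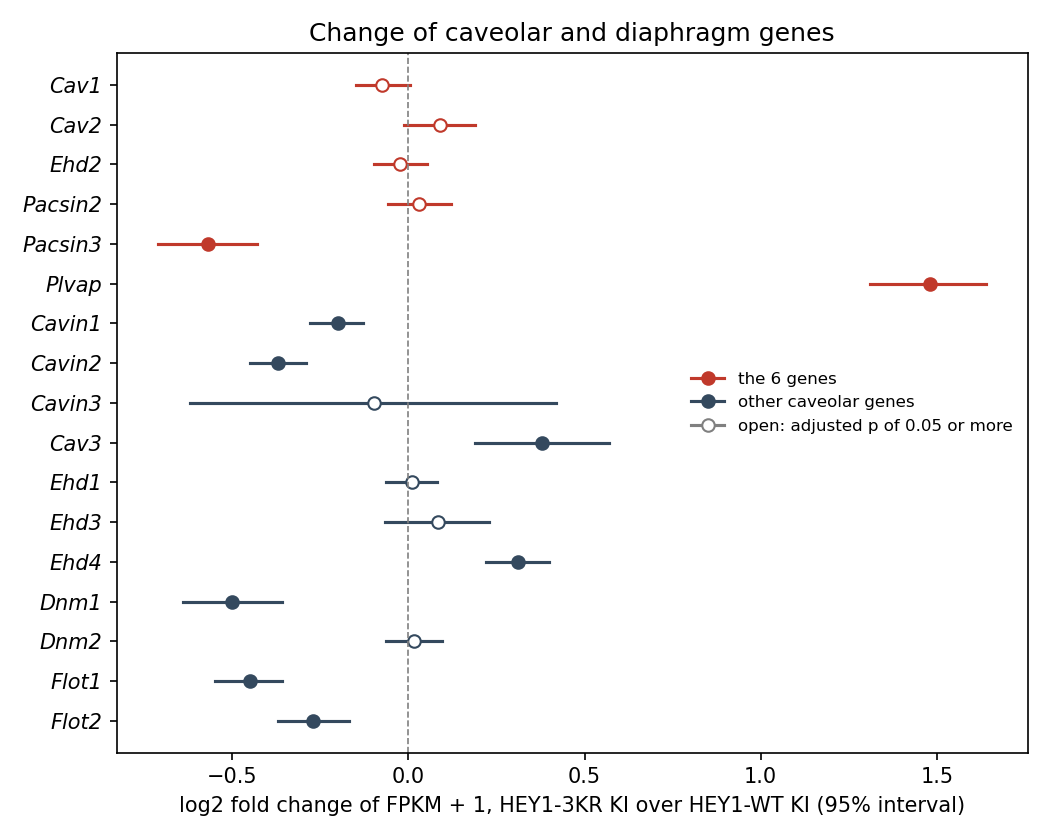
Log2 fold change of FPKM + 1, HEY1-3KR KI over HEY1-WT KI, with 95% intervals from limma, for the 6 genes (red) and the tested genes of a list of other caveolar proteins and relatives (dark). Filled points passed an adjusted p of 0.05; Plvap lies at 1.48 and Pacsin3 at -0.57, and the other red points lie between -0.074 and 0.09.

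The order of levels differed between the genotypes through Plvap. In HEY1-3KR KI the order from high to low was Cav1, Ehd2, Plvap, Pacsin2, Cav2 and Pacsin3, and in HEY1-WT KI it was Cav1, Ehd2, Pacsin2, Plvap, Cav2 and Pacsin3. Neighbours in either order did not overlap over the libraries of a genotype, although Cav1 and Ehd2 came close. The lowest Cav1 and the highest Ehd2 value were 110.4 and 109.5 FPKM in HEY1-3KR KI, and 114.6 and 113.0 FPKM in HEY1-WT KI. Cav1 had a higher mean level than 97.3% of all genes tested, Plvap than 92.7% and Pacsin3 than 39.8%.

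Ratios within a library do not depend on the library total, and they too set Plvap and Pacsin3 apart by size. Plvap stood at 0.635, 0.589 and 0.712 of the Cav1 level in HEY1-3KR KI replicates 1 to 3, against 0.243, 0.204 and 0.198 in HEY1-WT KI replicates 1 to 3. The log2 difference was 1.59, a 3.00-fold difference of ratios (exact two-sided permutation p = 0.1). Pacsin3 stood at 0.0892, 0.0974 and 0.104 of the Pacsin2 level in HEY1-3KR KI replicates 1 to 3, against 0.163, 0.148 and 0.164 in HEY1-WT KI replicates 1 to 3, a log2 difference of -0.71 (exact two-sided permutation p = 0.1). Ehd2 over Cav1 was 0.956 to 0.975 in HEY1-3KR KI and 0.932 to 0.938 in HEY1-WT KI, so the FPKM of Ehd2 was just below that of Cav1 in every library. Under quantile normalization this difference of ratios was 0.041 on the log2 scale and the groups overlapped (exact two-sided permutation p = 0.2). Pacsin2 over Cav1 was 0.379 to 0.392 in HEY1-3KR KI and 0.352 to 0.361 in HEY1-WT KI.

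**Figure D3:**
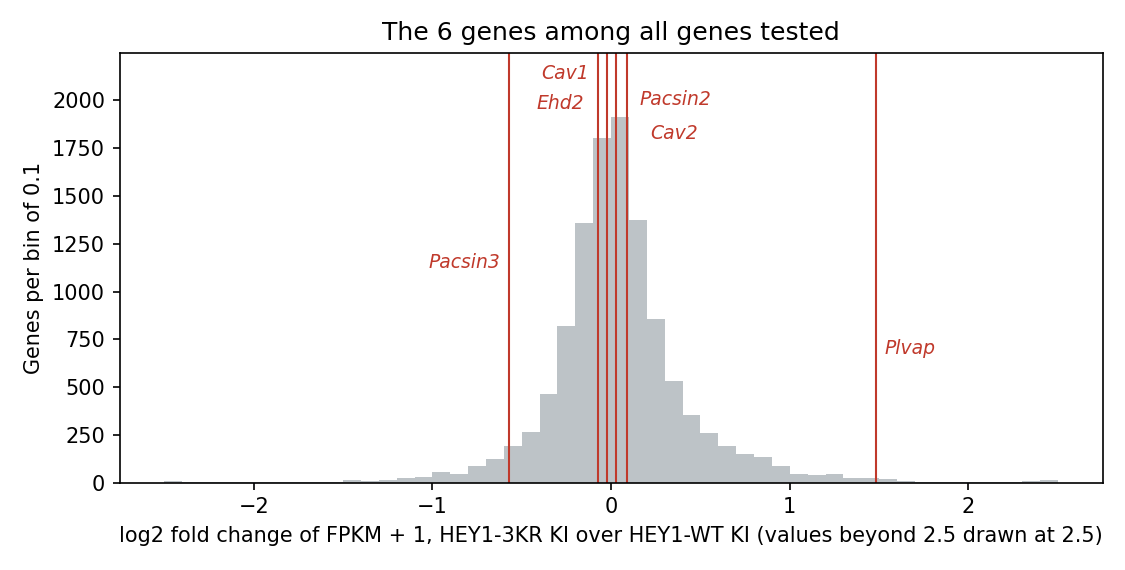
Number of genes (vertical axis) by log2 fold change of FPKM + 1, HEY1-3KR KI over HEY1-WT KI (horizontal axis, bins of 0.1), for the 11432 genes tested, with red lines at the 6 genes. Cav1, Cav2, Ehd2 and Pacsin2 fall in the centre, Pacsin3 on the lower flank and Plvap in the upper tail.

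Among other caveolar genes, transcripts of the coat proteins cavin-1 and cavin-2 fell. Of 14 listed coat, neck and related genes, 11 were tested, 5 fell, 2 rose and 4 did not pass, with a median log2 fold change of -0.10 against 0.0189 over all genes tested. Among all genes tested, 23.4% fell and 29.9% rose. Cavin1, which is required for caveola formation, read 146.3, 141.1 and 149.6 FPKM in HEY1-3KR KI replicates 1 to 3, against 165.7, 167.1 and 170.9 FPKM in HEY1-WT KI replicates 1 to 3, and the groups did not overlap. The log2 difference, -0.20 ± 0.0338 (SE), passed (limma, Benjamini-Hochberg adjusted p = 0.00097). Cavin2, which shapes endothelial caveolae, averaged 68.1 ± 2.03 FPKM in HEY1-3KR KI and 88.5 ± 1.43 FPKM in HEY1-WT KI (SD, n = 3 each). The log2 difference was -0.37 ± 0.0346 (SE), and it passed as well (limma, Benjamini-Hochberg adjusted p = 2.9e-05). Neither gene lost its call under any of 12 alternatives.

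Cavin3, which joins the coat through cavin-1, varied widely within each genotype. It read 31.8, 38.6 and 52.7 FPKM in HEY1-3KR KI replicates 1 to 3, against 59.0, 43.0 and 31.4 FPKM in HEY1-WT KI replicates 1 to 3. The groups overlapped fully, the log2 difference of -0.099 ± 0.228 (SE) did not pass (limma, Benjamini-Hochberg adjusted p = 0.738), and 374 of its 1662 exonic bases are shared with an unclassified gene model on the opposite strand.

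Of the EHD relatives, Ehd4, an endocytic ATPase, rose to 36.9 ± 1.33 FPKM in HEY1-3KR KI, against 29.7 ± 0.662 FPKM in HEY1-WT KI (limma, Benjamini-Hochberg adjusted p = 0.0002). Ehd1, the recycling ATPase of the family, averaged 112.0 ± 2.62 FPKM in HEY1-3KR KI and 111.3 ± 1.27 FPKM in HEY1-WT KI, and did not pass. Ehd3 averaged 3.45 ± 0.352 FPKM in HEY1-3KR KI and 3.19 ± 0.102 FPKM in HEY1-WT KI and did not pass either. The neuronal dynamin Dnm1 fell to 1.07 ± 0.0542 FPKM in HEY1-3KR KI, against 1.93 ± 0.168 FPKM in HEY1-WT KI. The ubiquitous dynamin Dnm2, which severs endocytic necks, averaged 40.6 ± 0.938 FPKM in HEY1-3KR KI and 40.1 ± 0.834 FPKM in HEY1-WT KI and did not pass. The flotillins, scaffold proteins of membrane rafts distinct from caveolae, fell in HEY1-3KR KI, Flot1 to 0.725 and Flot2 to 0.828 of the HEY1-WT KI mean. Muscle caveolin Cav3 rose at a low level, to 1.45 ± 0.0731 FPKM in HEY1-3KR KI against 0.892 ± 0.196 FPKM in HEY1-WT KI, and Cavin4, Pacsin1 and Dnm3 were below the filter on low values.

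The clathrin route, the other main coat for uptake, went both ways. Of 16 coat and adaptor genes 7 rose, 4 fell and 5 did not pass (median log2 fold change 0.07), beside 29.9% of all genes tested that rose and 23.4% that fell. Eps15 among the rises and Sh3gl1 among the falls, both endocytic accessory proteins, passed narrowly (limma, Benjamini-Hochberg adjusted p = 0.0346 and 0.0484) and were lost on leaving out HEY1-3KR KI replicate 1 or 2 or HEY1-WT KI replicate 1 or 2. Eps15 was also lost without HEY1-3KR KI replicate 3, after median-of-ratios scaling (adjusted p = 0.108) and under quantile normalization (adjusted p = 0.133). Sh3gl1 was also lost without HEY1-WT KI replicate 3, with no filter on low values (adjusted p = 0.0536) and with no variance trend (adjusted p = 0.0708). The adaptor Dab2 rose 1.52-fold and Hip1, which links clathrin to actin, 1.60-fold, and the adaptor Epn2 rose 1.21-fold, whereas the light chain Cltb fell to 13.7 ± 0.669 FPKM in HEY1-3KR KI, against 20.4 ± 1.20 FPKM in HEY1-WT KI. Of 9 tested genes for endothelial transcytosis and caveolar cargo 7 rose and Insr and Tfrc did not pass (median log2 fold change 0.32), beside pan-endothelial markers whose median was 0.71. Tfrc, the transferrin receptor, had a log2 fold change of -0.12 with groups that did not overlap (limma, Benjamini-Hochberg adjusted p = 0.0508). It passed as a fall on leaving out HEY1-3KR KI replicate 2 (adjusted p = 0.0381), after median-of-ratios scaling (adjusted p = 0.0197) and under quantile normalization (adjusted p = 0.0218). Among the 7 that rose were Gpihbp1, the lipoprotein lipase carrier of capillaries, at 2.92-fold, Fcgrt, the neonatal Fc receptor, at 1.70-fold, Nos3, the endothelial nitric oxide synthase that caveolin-1 binds, at 1.58-fold, and Scarb1, a lipoprotein receptor, at 1.43-fold.

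VEGF signalling is known to induce fenestrae, and its genes moved both ways. Of 9 listed genes 6 rose and 3 fell (median log2 fold change 0.29), beside 29.9% and 23.4% of all genes tested. The receptor Flt1 rose 2.75-fold and the co-receptor Nrp1 1.45-fold, and Pgf, a ligand of Flt1, rose 1.22-fold. Kdr, another VEGF receptor, rose 1.37-fold. Flt1, at a log2 fold change of 1.23, lay above the pan-endothelial median of 0.71, and Nrp1 (0.50) and Kdr (0.39) lay below it. The ligand Vegfb fell to 11.9 ± 0.221 FPKM in HEY1-3KR KI, against 17.1 ± 1.51 FPKM in HEY1-WT KI. The other falls, named after their values were seen, were Vegfa, the main ligand of the family, and Nrp2, a co-receptor. Vegfa averaged 19.7 ± 1.71 FPKM in HEY1-3KR KI and 26.6 ± 2.78 FPKM in HEY1-WT KI (limma, Benjamini-Hochberg adjusted p = 0.00239). Nrp2 passed narrowly (limma, Benjamini-Hochberg adjusted p = 0.0453) and was lost without HEY1-WT KI replicate 2 or 3 or HEY1-3KR KI replicate 1 or 3, with no filter on low values (adjusted p = 0.066) and with no variance trend (adjusted p = 0.0609).

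Each gene was also set against the geometric mean FPKM of the 20 pan-endothelial markers in its own library. Plvap stood at 4.11, 3.77 and 4.53 times that mean in HEY1-3KR KI replicates 1 to 3, against 2.69, 2.36 and 2.29 times in HEY1-WT KI replicates 1 to 3, a log2 difference of 0.76. The HEY1-3KR KI libraries were all higher, so the difference in Plvap was larger than that of the endothelial mean. Cav1 stood at 6.47, 6.41 and 6.37 times the mean in HEY1-3KR KI replicates 1 to 3, against 11.1, 11.6 and 11.5 times in HEY1-WT KI replicates 1 to 3, a log2 difference of -0.83. The other differences were -0.66 for Cav2, -0.78 for Ehd2, -0.72 for Pacsin2 and -1.43 for Pacsin3. For these 5 genes each HEY1-3KR KI library was lower than every HEY1-WT KI library (exact two-sided permutation p = 0.1 for each of the 6 genes). The share of all genes tested that separate on this measure was not computed. On FPKM itself 61.1% of them did not overlap. Of the 20 markers 18 rose (median log2 fold change 0.71), so a gene with an unchanged level comes out lower on this measure. Cav1, Cav2, Ehd2 and Pacsin2 themselves had log2 fold changes of -0.074, 0.09, -0.024 and 0.03. Their lower ratios therefore do not show a fall of these genes, and levels per endothelial cell were not tested.

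**Figure D4:**
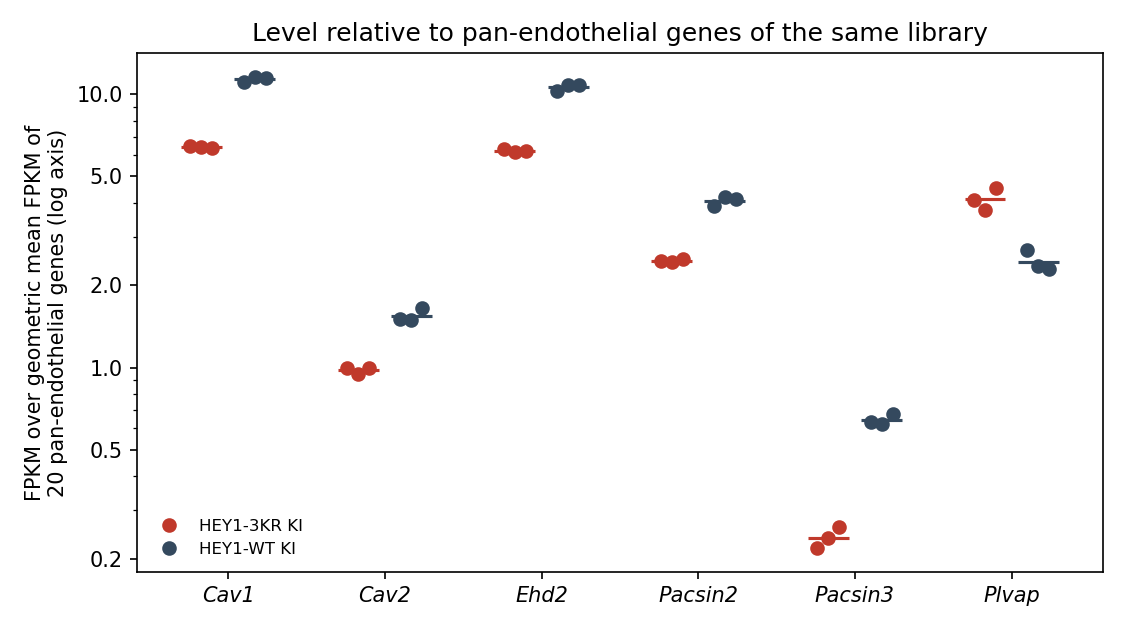
FPKM of each of the 6 genes divided by the geometric mean FPKM of 20 pan-endothelial genes in the same library (log axis), for HEY1-3KR KI (red, left) and HEY1-WT KI (dark, right), with lines at the geometric means of 3 libraries. Plvap is higher in HEY1-3KR KI, at 3.77 to 4.53 against 2.29 to 2.69, and the other 5 genes are lower.

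Over the 6 libraries the genes most like Plvap by Pearson r of log2(FPKM + 1) were Gas6, a ligand of TAM receptors (r = 0.9996), the sulfotransferase Chst2 (r = 0.9991) and the kinase Pim1 (r = 0.9987). They averaged 62.4 ± 1.62, 2.79 ± 0.193 and 10.9 ± 0.221 FPKM in HEY1-3KR KI, against 41.8 ± 1.53, 1.10 ± 0.0698 and 8.85 ± 0.134 FPKM in HEY1-WT KI. There were 1663 genes with r above 0.95 to Plvap, and r over these libraries includes the difference between genotypes. Those most like Cav1 were Tmem131 (r = 0.996), Fam122b (r = 0.9957) and Aff4 (r = 0.9939), and 89 genes had r above 0.95 with Cav1. The rankings and both counts left out gene models without a name, symbols with -ps, mitochondrially encoded genes and all symbols that begin with Rn. Likeness is given here as a description over 6 libraries that share their genotype groups.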

How the data were processed

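Gene-level FPKM from 6 libraries was deposited by the authors, 1 column per library, per the file headers (17463 entries, column sums 258650 to 265967). Tools named in the submitters' processing notes are HISAT2 2.1.0, StringTie 1.3.3b, SAMtools 1.9 and FastQC 0.19.7, with build mm10. For annotation, strand and shared reads the sources used here give nothing. FPKM is relative to a library's own total, and no scaling was added. Of entries that share a symbol, the one with the highest mean kept the name.

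Depth is approximate. In 2396 genes with 1 transcript, steps in low FPKM pointed to 16800000 to 20600000 fragments per library, but only 37.7% to 45.6% of low values came within 0.1 of whole multiples (20% if evenly spread), so whole reads could not be recovered and a count test was not possible. A floor of 3 fragments at 1 kb is 0.146 to 0.179 FPKM, counting error only. No 2 libraries were identical.

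Genes that reached 1 FPKM in 3 or more libraries (11432) were tested on log2(FPKM + 1), which understates changes of low genes, by limma 3.58.1 in R 4.3.3 (lmFit, eBayes with a variance trend, two-sided, no covariates, Benjamini-Hochberg over all genes, threshold 0.05), after a check on simulated data. Within-library ratios used exact permutation tests. Python 3.11.15, pandas 2.3.3, numpy 2.4.6 and matplotlib 3.10.9 were used. Alternatives were a pseudocount of 0.1, no filter, median-of-ratios or quantile scaling, no variance trend, a replicate block and leaving out each library, and for ratios also a pseudocount of 1 and the median of the markers. Named genes were the 6, all listed caveolar genes, up to 4 of each other list by smallest p, up to 3 markers a list by mean, and 3 genes most like Cav1 and Plvap. Eps15, Sh3gl1, Ap2s1, Clta, Ap2a1, Ap2m1, Insr, Tfrc, Kdr, Vegfa and Nrp2 fall outside this rule and were named after their values were seen. The same holds for the markers Slc34a2, Lamp3, Epcam, Tcf21, Myog, Kcnj8, Upk3b, Wt1 and Krt5. The members and lists were chosen with earlier results of these data known.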

Additional observations from a re-analysis of the deposited data

How the results depend on the processing

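Plvap rose and Pacsin3 fell under all 12 alternatives, at log2 fold changes of 1.42 to 1.54 and -0.67 to -0.52. Cav1 also passed after median-of-ratios scaling (-0.11), which gave 2 lower genes of the 6, and Cav2 passed without HEY1-WT KI replicate 3 (0.13), so that leaving out libraries gave 1 to 2 higher genes and Cav2 values of 0.069 to 0.13. Ehd2 reversed under quantile normalization (0.034), and Pacsin2 after median-of-ratios scaling (-0.0053) and without HEY1-WT KI replicate 1 (-0.0029, in a range of -0.0029 to 0.055). The cause was not tested. Among other genes that did not pass, Cavin3 reversed without HEY1-WT KI replicate 1 (0.12) or HEY1-3KR KI replicate 1 (0.065, in a range of -0.32 to 0.12), Ehd1 after median-of-ratios scaling (-0.026) or without HEY1-3KR KI replicate 3 (-0.002, in a range of -0.002 to 0.029), and Dnm2 after median-of-ratios scaling (-0.019). Clta (-0.011 after that scaling, -0.0041 to 0.07 without a library), Ap2a1 (0.0016 under quantile normalization, -0.038 to 0.0028 without a library), Ap2m1 (0.011) and Insr (-0.0032, both under quantile normalization) reversed as well, and Ap2s1 passed as a rise with the replicate block (0.11) and without HEY1-3KR KI replicate 2 (0.18). Over all genes, higher and lower calls were 3016 and 3096 after median-of-ratios scaling and 2915 and 3282 under quantile normalization, against 3414 and 2670 as reported.

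Log2 differences of within-library ratios moved by more than the SD between libraries in these cases. Under quantile normalization Cav2 over Cav1 was 0.071 and Pacsin2 over Cav1 0.041, and against pan-endothelial markers Cav1 was -0.72, Ehd2 -0.68 and Pacsin2 -0.68. With a pseudocount of 1 Pacsin3 over Pacsin2 was -0.60, and against pan-endothelial markers Cav1 was -0.75, Cav2 -0.59, Ehd2 -0.70, Pacsin2 -0.65 and Pacsin3 -1.25. With the median of the markers Cav1 was -0.70, Cav2 -0.53, Ehd2 -0.65, Pacsin2 -0.60 and Pacsin3 -1.31.

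Correlations of deviations between same-numbered libraries were -0.191, 0.254 and -0.272, and those between the other pairs of libraries ran from -0.24 to 0.381. So few values cannot settle whether the replicate numbers pair the libraries. With a replicate block Plvap was 1.48 (limma, adjusted p = 2.5e-05), Pacsin3 -0.57, Cav1 -0.074, Cav2 0.09, Ehd2 -0.024 and Pacsin2 0.03, with 3415 higher and 2719 lower calls over all genes, and no call of the 6 genes changed.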
